A study of Danio rerio with 48 samples.

Results

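The heads of zebrafish (Danio rerio) larvae held in 14 µM perfluorohexanesulfonate (PFHxS) were compared between 4 and 5 days post fertilisation (dpf). The 12 libraries labelled with this concentration were taken from the 48 of the series, 6 of each age. PFHxS belongs to the PFAS, synthetic surfactants with a fluorinated carbon chain. The larvae came from a mixed wild-type line, were kept at 26 °C and were exposed from 0 dpf. Each library held RNA from a pool of 15 heads cut in front of the swim bladder. The vehicle was 0.4% DMSO, which the larvae of every group received, and the 12 DMSO libraries of the same 2 ages were set beside the comparison. Between ages, PFHxS concentration, vehicle, line and dissection were shared, and only the age differed by label. As exposure began at 0 dpf, age, time since the start of exposure and day of collection cannot be told apart. Whether pools of 1 group stem from different clutches is not in the labels, and p-values therefore cover the spread among pooled samples.

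Around these ages the zebrafish larva changes from an animal that lives on yolk to one that swims, sees and hunts. Division slows in most of the brain while young neurons put out axons, join circuits and become wrapped in myelin. The retina is layered and its cones and rods already hold visual pigment, and the lens packs its fibre cells with crystallins. The jaw cartilages are surrounded by the first bone, teeth form on the pharyngeal arches, and ionocytes of the skin and gill take over the exchange of salts and ammonia. Liver, pancreas and intestine begin to work at about the same time. A head cut in front of the swim bladder can carry pieces of these organs.

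Of 20723 genes tested, 8486 (40.9%) differed between the ages, where a gene was called at an adjusted p under 0.05 in edgeR's quasi-likelihood test. At 5 dpf 4557 genes (22%) were called higher and 3929 (19%) lower, and 2988 and 1920 of them changed over 2-fold. All 6 libraries of 5 dpf lay above all 6 of 4 dpf for 1263 genes (6.09%) and below them for 1557 (7.51%). The median log2 fold change over all genes was 0.22. These values rest on edgeR's TMM scaling (a trimmed mean of log ratios between libraries), which takes most genes as unchanged. With the total count of each library as the scale, the median of all genes moved to 1.00 and the split became 12671 higher and 1198 lower, so 91.4% of the called genes were higher in place of 53.7%. Levels of genes are given as counts per 1e+06 after TMM scaling (CPM), as the median of the 6 libraries of a group with the lowest and highest library in parentheses. Changes of gene lists are therefore given as counts of called members, to be set against 22% higher and 19% lower over all genes. Beside them stands the list's median log2 fold change minus that of all genes, named the relative median. Where total counts turn a list's majority or a gene's direction, the counts or value under total counts stand in the same sentence.

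Depth was alike at both ages, with 17.4 to 27.0 M counts per library at 4 dpf and 18.8 to 27.1 M at 5 dpf (1 M is 1e+06 counts; two-sided exact permutation p 0.593). The makeup of the libraries was not. The 100 most counted genes of a library held 53.5% ± 2.96 of its counts at 4 dpf and 42.1% ± 4.00 at 5 dpf (SD, n = 6; exact permutation p 0.00216, the smallest that 6 against 6 libraries can give). The first principal component held 45.7% of the variance and placed the libraries of 4 dpf between -133.9 and -29.7 and those of 5 dpf between 40.6 and 118.0. Markers of photoreceptors, lens, neurons, cartilage, skin and muscle were counted in all 12 libraries. Markers of organs behind the head were counted in unequal amounts, and the intestine gene chia.1 had no counts in libraries H and I of 4 dpf. Libraries A and D of 5 dpf (replicate letters from the titles) held almost no exocrine pancreas RNA, and libraries H and I of 4 dpf held little from liver, pancreas or intestine. The 6 libraries of each age at 7.87 and 25.1 µM enter 1 fit with the others and are quoted for a few genes and lists. Results on digestive organs are given with and without A and D of 5 dpf and H and I of 4 dpf at 14 µM. Within the first 32 columns of the count table, taken as other sequencing pools than the last 16 (an inference from index numbers), 3525 genes were called, and within the last 16 columns 5626. At 14 µM the last 16 columns hold only libraries A and H of 4 dpf and G and H of 5 dpf, and the first 32 the rest.

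**Figure D1:**
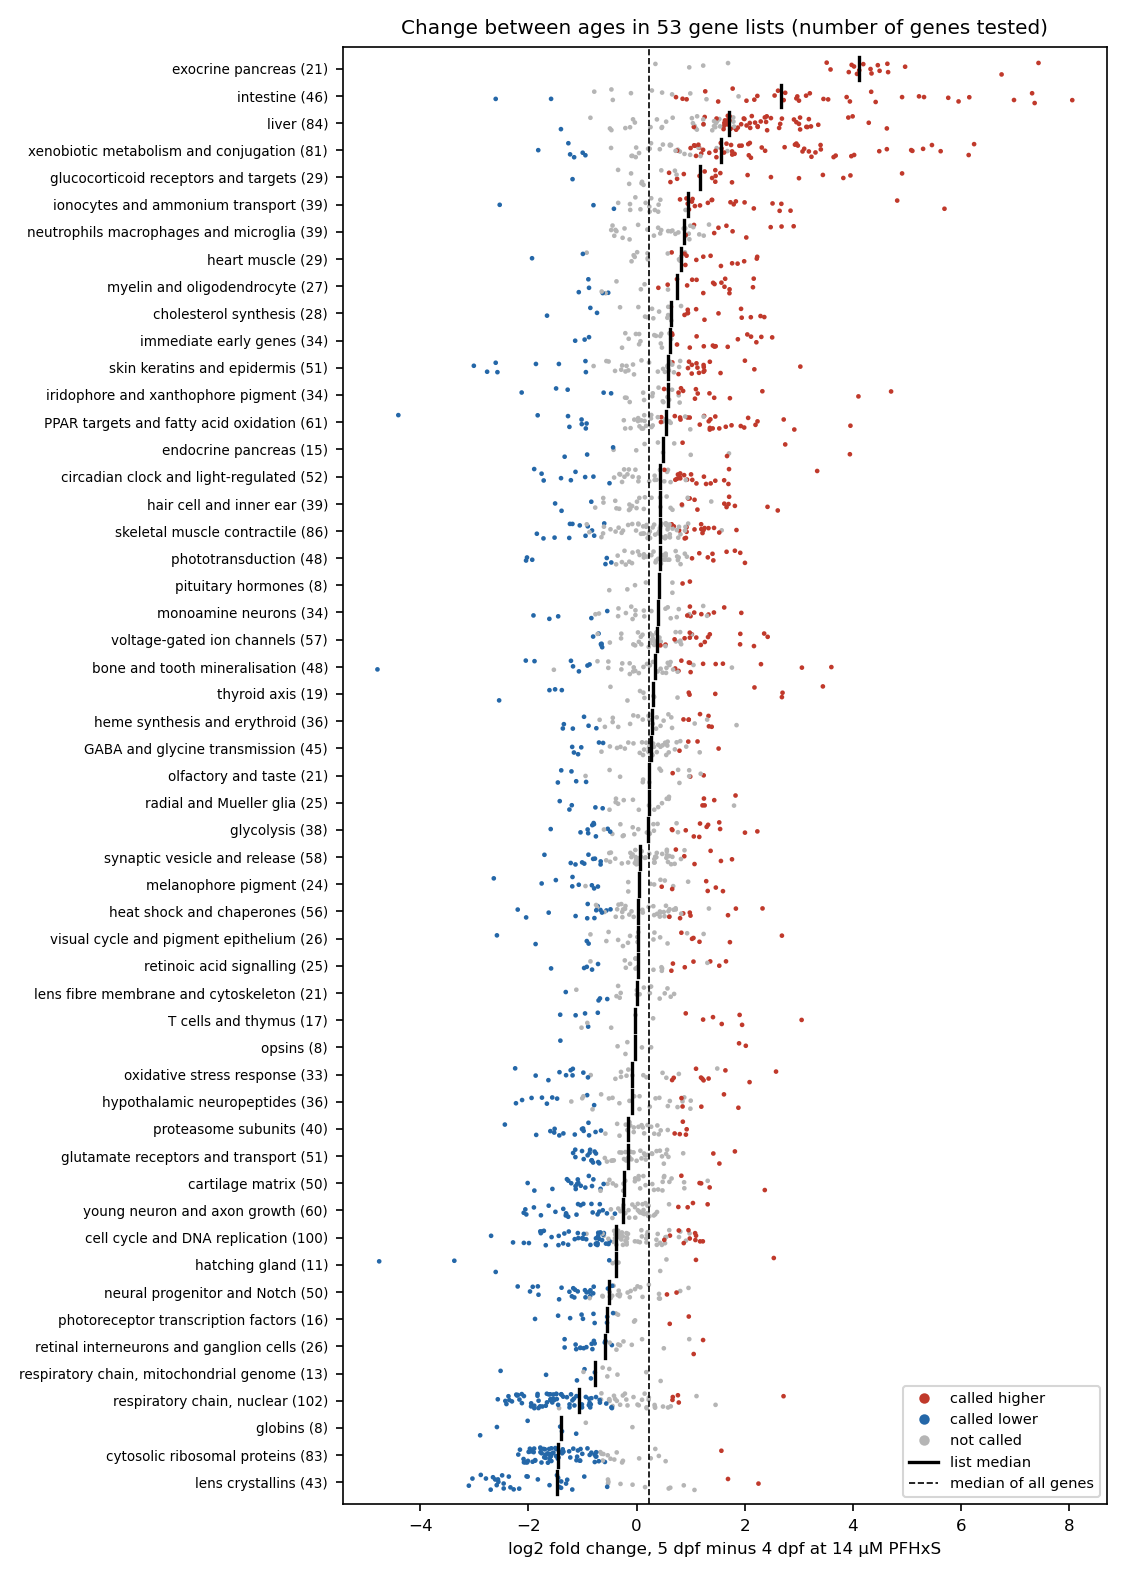
Log2 fold change from 4 to 5 dpf at 14 µM PFHxS (x axis; edgeR, TMM scaling) of each tested gene of 53 lists (rows, with the number of genes), coloured by the call. Black bars are list medians and the dashed line is the median of all genes (0.22). The digestive lists stand at the top and crystallins, ribosomal proteins and globins at the bottom. With total counts as the scale all values shift up by about the same amount, from a median of all genes of 0.22 to 1.00, and lists near the middle change sides.

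The 10 largest rises among genes with a mean log2 CPM of at least 1 and ages that did not overlap included 3 P450 genes. Some digestive genes with overlapping ages, given with their organs, rose by as much. The part of digestive organs in the 10 largest rises was not tested. The P450 gene cyp2k18 (chromosome 3, 12710350 to 12715433, GRCz11 here and below), one of a family of oxidases of drugs and lipids, had 0.175 CPM (0.0427 to 0.648) at 4 dpf and 17.6 CPM (2.64 to 38.1) at 5 dpf. The relatives cyp2n13 and cyp2ad2, which lie close together on chromosome 20, had 0.57 CPM (0 to 1.13) and 1.06 CPM (0.128 to 4.32) at 4 dpf against 18.6 CPM (4.77 to 43.6) and 38.1 CPM (14.9 to 87.8). In each of them every library of 5 dpf exceeded every library of 4 dpf, although libraries A and D were the lowest of 5 dpf in all 3. Their log2 fold changes were 6.24 ± 0.83, 5.30 ± 0.66 and 4.63 ± 0.60 (SE), with edgeR adjusted p of 1.37e-07, 4.57e-08 and 9.84e-08. The organic anion transporter gene slc22a6l rose from 1.61 CPM (0.269 to 2.59) to 55.1 CPM (27.7 to 69.8). The mitochondrial uncoupling protein gene ucp1 (chromosome 1, 53374454 to 53388915) rose from 9.17 CPM (6.37 to 21.2) to 279 CPM (60.5 to 375), a log2 fold change of 4.31 ± 0.53. Also among the 10 largest rises were the inter-alpha-trypsin inhibitor gene itih3b (4.71 ± 0.70), the purine nucleoside phosphorylase gene pnp4b (4.71 ± 0.64), the tyrosine aminotransferase gene tat (4.00 ± 0.46) and the pyruvate dehydrogenase kinase gene pdk2b (3.95 ± 0.46). For itih3b the mean CPM of 5 dpf was 25.4 times that of 4 dpf, and 41.1 times without library D of 4 dpf. None of the 10 had overlapping groups, as the rule that names them requires. The mean ratios of cyp2n13, cyp2ad2, pnp4b and ucp1 were lowest without library H of 5 dpf and highest without D of 4 dpf. Both libraries had the highest liver, exocrine pancreas and intestine means of their ages. The others of the 10 did not have both of these.

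The 10 largest falls were chosen under the same limits. The scpp9 gene, one of the secretory calcium-binding phosphoproteins of tooth and bone (chromosome 1, 43969797 to 43973069), fell from 64.1 CPM (40.6 to 129) to 2.92 CPM (1.34 to 4.45), a log2 fold change of -4.79 ± 0.58 and the largest fall of a gene named here. Of the other large falls, the lens genes crygm2d7 and crygm2d5 and the globin gene hbbe1.3 are described with their tissues. The S100 calcium-binding protein gene icn2, of the ictacalcin group of skin, fell from 35.6 CPM (25 to 68.7) to 4.61 CPM (2.9 to 8.65). The water channel gene aqp8b changed by -3.38 ± 0.65, and the ratio of its mean CPM was 0.0949, or 0.152 without library D of 4 dpf. The other 4 of the 10, snrpe, lsm5, lsm6 and smx5, encode Sm or Sm-like proteins of RNPs that process RNA. No list of such genes was set up, so other members were not counted. The snrpe gene fell from 34.3 CPM (23.4 to 48.2) to 3.76 CPM (2.9 to 8.79), lsm5 from 9.64 CPM (6.92 to 16.2) to 0.799 CPM (0 to 1.56), lsm6 from 11.9 CPM (6.69 to 17.7) to 1.25 CPM (0.7 to 3.73), and smx5 from 11.1 CPM (4.75 to 16.2) to 0.908 CPM (0.506 to 4.26). None had overlapping ages. The ratio of the mean CPM of smx5 was 0.142, and 0.0895 without library E of 5 dpf.

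**Figure D2:**
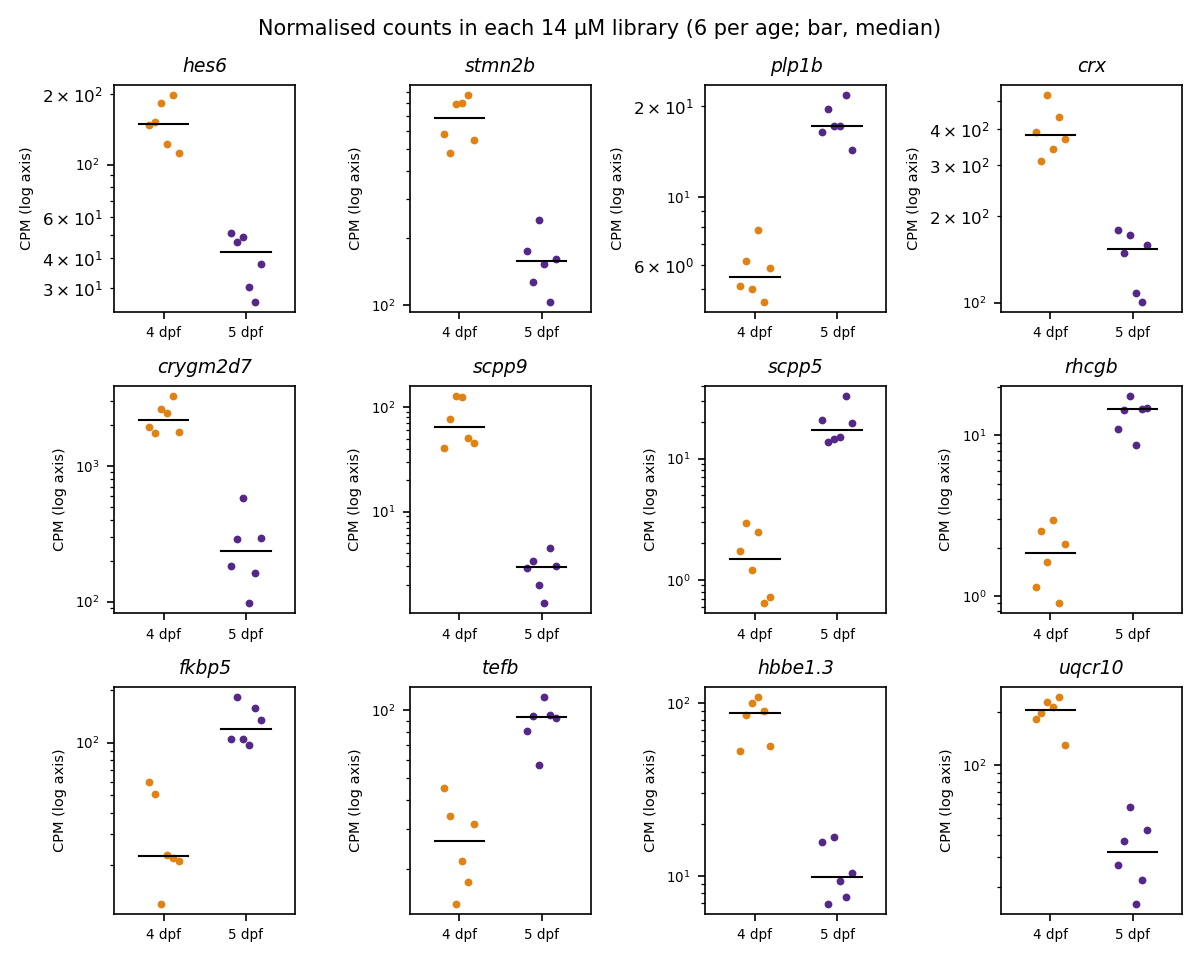
TMM-scaled counts per 1e+06 (CPM, log axis) of 12 genes in each of the 12 libraries of 14 µM, 6 points per age, with bars at the medians. The ages do not overlap in any of the 12: hes6, stmn2b, crx, crygm2d7, scpp9, hbbe1.3 and uqcr10 are lower at 5 dpf and plp1b, scpp5, rhcgb, fkbp5 and tefb higher. The 12 are chosen examples. Over all genes tested the ages were apart for 6.09% (higher at 5 dpf) and 7.51% (lower).

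Under TMM scaling, genes of dividing and uncommitted cells were called lower more often than higher, a majority that total counts turned in both lists. Of 100 tested genes of the cell cycle and DNA replication, 41 were called lower and 11 higher with a relative median of -0.60, whereas total counts gave 16 lower and 38 higher. Of 50 genes of neural progenitors and Notch signalling 23 were lower and 2 higher, with a relative median of -0.74 (8 lower and 17 higher with total counts). In bulk RNA fewer cells of a type and less RNA per cell cannot be told apart, here or in the lists that follow. The hes6 gene, a bHLH factor that promotes neuronal differentiation, had 149 CPM (112 to 198) at 4 dpf and 42.4 CPM (26.1 to 51.4) at 5 dpf. The homeobox gene rx3 of the early eye and hypothalamus had 31.1 CPM (20.6 to 39.7) and 8 CPM (6.71 to 8.79). Both sets of libraries were apart, and the log2 fold changes were -1.92 ± 0.24 and -1.97 ± 0.19 (edgeR adjusted p 5.17e-08 and 1.4e-10). The nucleosome-binding protein gene hmgn2, abundant in embryonic cells, fell from 270.3 CPM (200.4 to 428) to 51.6 CPM (41.9 to 121). The Notch ligand gene jag1b was 1 of the 2 higher members (0.74 ± 0.19).

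Within the cell cycle list the members parted. The spindle checkpoint genes bub1 and bub3 fell from 73.8 CPM (46.1 to 112) and 142 CPM (81 to 201) to 22.7 CPM (12.9 to 28.6) and 37.3 CPM (20.2 to 49.996), and the gene of the smallest subunit of replication protein A, rpa3, changed by -2.69 ± 0.41. No library of 5 dpf reached the 4 dpf range for these 3 genes. The proliferation marker mki67 was not called, at 105 CPM (79.6 to 129) and 85.4 CPM (60.3 to 104). Its log2 fold change was -0.30 ± 0.22 under TMM, 0.46 with total counts (called higher there, edgeR adjusted p 0.0398) and 0.12 in the quantile values. Of the 11 higher members only pcna is described, and the highest log2 fold change in the list was 1.23. The pcna gene, the sliding clamp of DNA polymerase, was higher, at 51.7 CPM (28.6 to 138) and 108 CPM (70.117 to 162). Its ages overlapped, and its call (0.87 ± 0.30, edgeR adjusted p 0.0177) was lost without library C or H of 4 dpf or D of 5 dpf, with adjusted p of 0.0609, 0.0575 and 0.0539.

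Genes of young neurons had the same pattern of calls. Of 60 genes of young neurons and axon growth 24 were called lower and 4 higher, against 12 and 25 with total counts. The relative median was -0.47, and limma on the authors' quantile values called 16 lower and 12 higher. Libraries H and I had the highest mean log2 CPM of this list at 4 dpf, 6.41 and 6.18. Without these 2 libraries 17 were lower and 10 higher, with a relative median of -0.15. The stathmin gene stmn2b, whose product keeps microtubules of growth cones dynamic (chromosome 19, 31771270 to 31790552), had 687 CPM (479 to 874) at 4 dpf and 157 CPM (104 to 241) at 5 dpf. The alpha-tubulin gene tuba1a of growing axons had 3198 CPM (2494 to 4108) and 792 CPM (581 to 984). Neither gene overlapped between the ages, and both lay about 2 log2 units lower, at -2.09 ± 0.22 and -2.06 ± 0.24 (edgeR adjusted p 1.7e-09 and 1.17e-08). The general neuronal marker elavl3, an RNA-binding protein, did not pass, at 189 CPM (78.6 to 260.4) and 166 CPM (136 to 282), and was called higher with total counts (0.92).

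Genes of synapses and ion channels were called in both directions. Of 58 genes of synaptic vesicles and release 10 were lower and 6 higher (relative median -0.16), but 2 and 36 with total counts. Among them the vesicle GTPase gene rab3c had 52.7 CPM (40.6 to 75.5) and 17.4 CPM (8.93 to 21.5), and the synapsin gene syn2b 255 CPM (146 to 431) and 123 CPM (84.5 to 137). Both fell with no overlap (-1.70 ± 0.26 and -1.22 ± 0.21), while the SNARE gene snap25a did not pass (0.61 ± 0.27). It was called higher in the quantile values (1.12, limma adjusted p 0.00526), with total counts (1.37), and without library B or I of 4 dpf or E of 5 dpf (edgeR adjusted p 0.0483, 0.0430 and 0.0427). Of 51 genes of glutamate receptors and transport 15 were lower and 3 higher (relative median -0.39), against 0 and 22 with total counts. The 45 genes of GABA and glycine transmission had 6 lower (13.3%) and 4 higher (8.89%), also below the shares of all genes, and 0 and 32 with total counts. Without libraries H and I of 4 dpf the glutamate list had 8 lower and 7 higher, and the GABA and glycine list 4 and 10. The glycine transporter gene slc6a5 of inhibitory neurons rose from 16 CPM (12.8 to 25.5) to 33.5 CPM (27.6 to 69), and abat, the GABA-degrading transaminase, from 40.7 CPM (21.1 to 46.6) to 107 CPM (72 to 132). The kinase gene camk2a of excitatory synapses rose from 1.81 CPM (0.864 to 2.78) to 4.89 CPM (3.53 to 6.85). In these 3 genes the ages stood apart.

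Voltage-gated ion channels had 17 members higher and 6 lower of 57, with a relative median of 0.15. The sodium channel gene scn4ab, of muscle, rose from 7.61 CPM (5.76 to 9.95) to 29.4 CPM (22 to 39.2) (1.92 ± 0.25, edgeR adjusted p 8.09e-08), and the potassium channel subunit gene kcnv2b, which mammals use in photoreceptors, from 0.78 CPM (0.451 to 2.38) to 5.51 CPM (2.76 to 7.3). Every library of 5 dpf was the higher one for both. Of 34 genes of monoamine neurons 9 were higher and 5 lower. These shares of 26.5% and 14.7% were near the 22% and 19% of all genes. The monoamine oxidase gene mao rose from 14 CPM (9.5 to 20.0) to 42.8 CPM (21.1 to 66.9), and the noradrenaline transporter gene slc6a2 changed by 1.43 ± 0.32, with ages that overlapped. Transcription factor genes of these neurons were among the lower members. Expression of nr4a2a fell from 24.1 CPM (12.8 to 47.8) to 8.8 CPM (4.28 to 10.4), and otpa changed by -1.91 ± 0.38.

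Most of the called myelin genes were higher. Of 27 genes of myelin and oligodendrocytes 16 were called higher and 5 lower, with a relative median of 0.52. The proteolipid gene plp1b (chromosome 5, 23268121 to 23280099) had 5.48 CPM (4.54 to 7.78) at 4 dpf and 17.2 CPM (14.4 to 21.7) at 5 dpf, and mpz, the adhesion protein of the sheath, had 4.59 CPM (2.98 to 6.84) and 15.8 CPM (11.8 to 21.6). These 2 genes were about 3 times as high at 5 dpf in means (ratios 3.09 and 3.31) and did not overlap. The myelin basic protein gene mbpa changed by 1.03 ± 0.22 and ugt8, the enzyme of galactolipid synthesis, by 1.64 ± 0.35, each with 1 or more libraries in the other age's range. In radial and Müller glia 5 of 25 genes were higher and 5 lower (20% each), against 15 and 1 with total counts. Among the 5 higher members were glutamine synthetase glula (1.26 ± 0.26), the lipoprotein gene apoeb (1.44 ± 0.32) and the prostaglandin D synthase gene ptgdsb.2 (1.83 ± 0.28). The 5 lower members are not named here, and the lowest log2 fold change in the list was -1.42. The filament gene gfap was not called, at 5.69 CPM (3.69 to 7.82) and 7.22 CPM (5.25 to 13.4), and was called higher with total counts (1.29).

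In the eye, regulators of photoreceptor fate were called lower under TMM scaling while the machinery of vision moved unevenly. Of 16 photoreceptor transcription factor genes 10 were lower and 2 higher (relative median -0.77), against 3 and 4 with total counts. The homeobox gene crx, which drives photoreceptor genes (chromosome 5, 36932718 to 36936444), had 379 CPM (308 to 523) at 4 dpf and 154 CPM (101 to 179) at 5 dpf. Its partners otx2a and otx2b had 33.7 CPM (27.2 to 39.7) and 168 CPM (120.1 to 263) at 4 dpf and 9.94 CPM (5.56 to 12) and 79.1 CPM (58.2 to 88.3) at 5 dpf. The ages did not overlap for any of the 3, with log2 fold changes of -1.45 ± 0.19, -1.88 ± 0.23 and -1.23 ± 0.20. The 2 higher members were six7, described with the DMSO comparison, and the thyroid hormone receptor gene thrb of long-wavelength cones (0.97 ± 0.30), whose call was lost without libraries H and I of 4 dpf (edgeR adjusted p 0.0737). Of 26 genes of retinal interneurons and ganglion cells 15 were lower and 2 higher (relative median -0.81), against 2 and 5 with total counts. The ganglion cell factors isl1 and pou4f1 fell (-1.33 ± 0.17 and -1.33 ± 0.26), and the bipolar cell calcium-binding protein gene cabp5a rose (1.23 ± 0.35).

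Of 8 opsin genes 2 were called higher (25%) and 1 lower (12.5%), with a relative median of -0.26. The share called higher was near that of all genes, and the share called lower was below it. The quantile values gave 4 higher and 0 lower, with a relative median of 0.87. Taken against the trend of expression level, described below, the opsin median under TMM was 0.91. Under TMM scaling the lower member was the rod opsin gene, and the 2 higher members were cone opsin genes. The rod gene rho (chromosome 8, 54076195 to 54077741) had 18618 CPM (11052 to 22908) at 4 dpf and 6796 CPM (4967 to 8488) at 5 dpf, with no overlap (-1.41 ± 0.28, edgeR adjusted p 8.13e-05). In limma on the quantile values its log2 fold change was -0.34 and it was not called, and the reason was not tested. The green opsin gene opn1mw2 rose from 5.46 CPM (2.09 to 22.1) to 32 CPM (26.6 to 63.1). The red opsin gene opn1lw1 was low, at 0.394 CPM (0.13 to 1.87) and 1.87 CPM (1.1 to 3.45), and was called higher (1.89 ± 0.54). The ratio of its mean CPM was 3.71, and 6.5 without library B of 4 dpf. The ultraviolet opsin gene opn1sw1 was not called, at 10396 CPM (5248 to 21470.4) and 10327 CPM (6897 to 12449.9), and its change of -0.17 ± 0.26 became 0.58 with total counts and 1.19 in the quantile values, where it was called (limma adjusted p 0.00357). Members of a duplicated opsin cluster can share reads.

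Phototransduction genes had 9 of 48 higher and 6 lower, against 42 and 3 with total counts. The shares under TMM, 18.8% and 12.5%, lay below the 22% and 19% of all genes. The phosphodiesterase gamma subunit gene pde6ha of cones rose from 58.5 CPM (36.7 to 139) to 268 CPM (141 to 433), and guca1c, a calcium sensor of guanylate cyclase, changed by 1.82 ± 0.50. The transducin gamma genes of rods, gngt1, and of cones, gngt2b, fell, from 48.1 CPM (29.9 to 84.6) and 876 CPM (638 to 978) to 11.1 CPM (7.24 to 26.3) and 198 CPM (101 to 354). All 6 libraries of 5 dpf were on the same side of 4 dpf for pde6ha, gngt1 and gngt2b, and for guca1c the ages overlapped. Of 26 genes of the visual cycle and pigment epithelium 6 were higher (23.1%) and 4 lower (15.4%), with 17 and 2 under total counts. They included the retinol-binding protein gene rbp4l (1.16 ± 0.27) as a rise and the retinal G protein-coupled receptor gene rgrb (-1.87 ± 0.40) as a fall.

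Crystallins of the lens had the relative median farthest from 0 among the lists of head tissues. Of 43 crystallin genes 31 were lower and 2 higher, with a relative median of -1.70, and total counts left 25 lower and 7 higher. The gamma crystallin genes of the aquatic M family led, and crygm2d7 (chromosome 9, 22271056 to 22272182) had 2172 CPM (1748 to 3268) at 4 dpf and 236 CPM (98.5 to 577) at 5 dpf. Its neighbours crygm2d5 and crygm2d3 had 2963 CPM (2098 to 4229) and 4303 CPM (3527 to 5948) at 4 dpf, and 388 CPM (157 to 805) and 622 CPM (301 to 1083) at 5 dpf. No library crossed between the ages for these 3 genes, with log2 fold changes of -3.10 ± 0.46, -2.88 ± 0.43 and -2.79 ± 0.38. They are near copies on chromosome 9 that may share reads, and they are not independent of each other. The crygn1 gene rose instead, from 1.79 CPM (0.539 to 5.33) to 9.7 CPM (6.16 to 15.3). Genes of lens fibre membranes and cytoskeleton did not follow the crystallins, with 4 of 21 lower and 0 higher (0 and 9 with total counts). The difference between the 2 lens lists was not tested.

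In the ear, 12 of 39 genes of hair cells and the inner ear were higher and 3 lower (relative median 0.21). The otolith matrix gene otomp rose from 6.75 CPM (2.66 to 9.48) to 19.2 CPM (12.8 to 26.1), with the ages apart, and otog, the otogelin of the membranes over the sensory cells, changed by 0.98 ± 0.27. The hair cell fate gene atoh1a, also used in the hindbrain, fell (-1.39 ± 0.26). In the nose and taste buds 3 of 21 genes were higher and 5 lower (11 and 1 with total counts). The olfactory marker protein gene ompa had 20.5 CPM (12.4 to 29.2) and 8.89 CPM (4.46 to 15.246), a change of -1.204 ± 0.32 that was not called with total counts (-0.46, adjusted p 0.115).

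Some hormone genes of the hypothalamus fell and targets of glucocorticoids rose. Of 36 hypothalamic neuropeptide genes 9 were lower and 5 higher, with a relative median of -0.31, and 6 lower and 14 higher with total counts. Oxytocin (oxt) had 58.9 CPM (30.5 to 71.6) at 4 dpf and 15.096 CPM (11.4 to 23.8) at 5 dpf, vasopressin (avp) 20.6 CPM (10.6 to 34.4) and 4.88 CPM (2.71 to 7.19), and thyrotropin-releasing hormone (trh) 46.2 CPM (26.9 to 68.5) and 10.4 CPM (5.76 to 19.5). The 2 ages were separate in all 3 genes, and each fell by more than a log2 unit (-1.75 ± 0.28, -2.23 ± 0.35 and -2.12 ± 0.30, with edgeR adjusted p of 3.72e-06, 2.65e-06 and 3.45e-07). The neuropeptide gene adcyap1b, which encodes PACAP, rose (0.85 ± 0.23). Of 8 pituitary hormone genes 2 were called higher. Growth hormone (gh1) had 5.62 CPM (3.64 to 9.33) and 3.46 CPM (1.77 to 20.4). Its change of 0.17 ± 0.49 was not called and was -0.62 without library E of 5 dpf, which held the highest value.

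Glucocorticoid receptors and their targets had 19 of 29 members higher and 1 lower, a relative median of 0.94 that was 0.94 within the first 32 columns and 0.79 within the last 16. The chaperone gene fkbp5, a standard readout of the receptor (chromosome 6, 41096058 to 41117243), had 22.5 CPM (12.1 to 59.4) at 4 dpf and 119.8 CPM (97.5 to 182) at 5 dpf. The Krüppel-like factor gene klf9, a target of glucocorticoid and thyroid hormone, had 1.77 CPM (0.269 to 5.42) and 24.9 CPM (11.7 to 38.3), and the glucose-6-phosphatase gene g6pca.2 2.84 CPM (0.518 to 6.32) and 45.9 CPM (14.7 to 71.5). No overlap was seen in these genes, whose log2 fold changes were 2.05 ± 0.37, 3.44 ± 0.54 and 3.82 ± 0.54. As tat and g6pca.2 are also liver genes, the list is not independent of the digestive organs, and the part of these organs was not tested. Of 19 thyroid axis genes 7 were higher and 4 lower. The deiodinase gene dio3b, whose enzyme inactivates thyroid hormone, rose from 1.05 CPM (0.812 to 2.03) to 7.97 CPM (3.27 to 11.9), and pax8, a factor of thyroid follicle cells, fell from 8.56 CPM (5.94 to 13.4) to 3.57 CPM (2.43 to 4.93).

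Of 52 clock and light-regulated genes 20 were higher and 9 lower (relative median 0.21). The period gene per1a rose from 20.8 CPM (8.77 to 36.5) to 59.6 CPM (46.5 to 69.6), the bZIP factor gene tefb from 26.4 CPM (14 to 45.1) to 93.3 CPM (57.3 to 115) and the repressor gene nfil3-6 from 7.49 CPM (1.95 to 21.3) to 96.5 CPM (22.2 to 193). Among the lower members, the light-responsive cry4 fell from 85.7 CPM (61.8 to 137) to 27.1 CPM (14.6 to 31.1), cry1bb changed by -1.72 ± 0.37 and the cryptochrome ligase gene fbxl3b by -1.76 ± 0.30. The hour of collection is not in the labels used here, and its part was not tested. Immediate early genes, which cells switch on within minutes of a stimulus, had 16 of 34 members higher and 3 lower. The neuronal activity gene npas4a rose from 2.64 CPM (0.798 to 4.6) to 11.3 CPM (6.13 to 29.3), with the ages apart. The AP-1 genes fosab (2.05 ± 0.60) and fosb (2.21 ± 0.70) rose with overlap. The call of fosb was lost without libraries H and I of 4 dpf (edgeR adjusted p 0.0602), and the mean ratio of fosb moved from 4.57 to 8.83 without library A of 4 dpf.

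In the skeleton, cartilage genes were called lower more often than higher under TMM scaling, but not with total counts or in the quantile values. Mineralisation genes were called in both directions, at shares near those of all genes. Of 50 cartilage matrix genes 18 were lower and 5 higher (relative median -0.45). Total counts gave 4 lower and 23 higher, and the quantile values 8 and 11. The main collagen gene col2a1a had 34608 CPM (20828 to 50742) at 4 dpf and 16240.2 CPM (9788 to 19739.6) at 5 dpf, and col9a2, its fibril partner, 3962 CPM (2625 to 5910.3) and 1426 CPM (822 to 1768). Their groups did not meet. The change of -1.56 ± 0.26 in col9a2 was called under either scale of the counts, and was -0.36 and not called in the quantile values. That of col2a1a (-1.13 ± 0.27) was -0.36 and not called with total counts (adjusted p 0.106), and 0.26 in the quantile values. The matrilin gene matn1, with overlapping ages, behaved alike (-1.12 ± 0.31 under TMM, -0.37 with total counts, 0.00 in the quantile values). The chondrocyte genes mia and nkx3.2, a factor of the jaw joint, fell from 68.2 CPM (34.2 to 79.3) and 25.6 CPM (15.6 to 40.8) to 12 CPM (7.63 to 30.7) and 8.13 CPM (3.81 to 9.75). The joint lubricant gene prg4b rose from 2.05 CPM (0.726 to 4.17) to 11 CPM (6.47 to 20.2).

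Of 48 genes of bone and tooth mineralisation 12 were higher and 8 lower (33 and 3 with total counts), and 3 of them lie together on chromosome 1. There scpp9, described above, and the enamelin gene enam fell, the latter from 375 CPM (197 to 707) to 119 CPM (56.6 to 127), while scpp5 (chromosome 1, 43909933 to 43915568) rose from 1.47 CPM (0.648 to 2.95) to 17.3 CPM (13.8 to 33.1). All 3 genes encode secreted calcium-binding proteins of mineralised tissue. None overlapped between the ages, with log2 fold changes of -4.79 ± 0.58, -2.05 ± 0.31 and 3.60 ± 0.45 (edgeR adjusted p 2.55e-08, 1.38e-06 and 5.65e-08). The osteopontin gene spp1 rose from 1.14 CPM (0.648 to 2.99) to 6.72 CPM (5.05 to 8.33). The homeobox gene dlx2a, used in tooth germs and in the forebrain, fell from 45.5 CPM (26.1 to 69.9) to 12.7 CPM (7.9 to 20.0).

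In the skin 18 of 51 genes were higher and 8 lower, and members of related groups parted. The ictacalcin gene icn and the mucous cell gene agr2 fell, from 252 CPM (184 to 372) and 102 CPM (50.4 to 152) to 27.3 CPM (22.3 to 78.2) and 13.9 CPM (9.89 to 34.9). The basal keratin gene krt5 had 3669.9 CPM (3103 to 7791) and 1612 CPM (819.8 to 2649), a change of -1.44 ± 0.29 that was -0.20 and not called in the quantile values (limma adjusted p 0.571). Keratin genes krt93 and krt94 of chromosome 11 rose, from 1.15 CPM (0.194 to 4.1) and 9.92 CPM (5.9 to 25.8) to 11.9 CPM (7.39 to 17.9) and 51.2 CPM (35.1 to 71.3). In all 5 genes the ages stood apart. Of 11 hatching gland genes 4 were lower and 2 higher (3 and 5 with total counts). The hatching enzyme gene he1.1, used up once the larva has left its chorion, had 1.38 CPM (0 to 3.02) and 0.116 CPM (0 to 0.215), and its call (edgeR adjusted p 0.0142) was lost without libraries A and D of 5 dpf (adjusted p 0.0644).

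Most of the called ionocyte genes were higher. Of 39 genes of ionocytes and ammonium transport 22 were higher and 3 lower, a relative median of 0.72 that was 0.59 in the first 32 columns and 1.06 in the last 16. For 14 of the 39 all 6 libraries of 5 dpf were above those of 4 dpf, as they were for 6.09% of all genes tested. The ammonia channel gene rhcga (chromosome 7, 14291323 to 14302717) had 2.68 CPM (0 to 7.13) at 4 dpf and 99.8 CPM (52.1 to 146) at 5 dpf, and rhcgb of the acid-secreting ionocytes 1.85 CPM (0.907 to 2.99) and 14.5 CPM (8.73 to 17.7). The membrane carbonic anhydrase gene ca15a had 1.14 CPM (0.518 to 2.95) and 5.28 CPM (3.2 to 9.43). Library C of 4 dpf had 0 counts of rhcga, and the log2 fold changes were 4.82 ± 0.67, 2.85 ± 0.28 and 2.17 ± 0.37.

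Pigment cells differed by type in their counts, though the difference between types was not tested. Of 24 melanophore genes 9 were lower and 6 higher (4 and 10 with total counts), with the melanin synthesis genes tyrp1a and tyrp1b among the lower. They had 1045 CPM (386 to 1407) and 944 CPM (609 to 1854) at 4 dpf, and 151 CPM (80.8 to 226) and 418 CPM (159 to 516) at 5 dpf, with no overlap. The fall of tyrp1b was -0.58 and not called in the quantile values. The melanosome receptor gene gpr143 fell (-1.76 ± 0.27), and kita, the receptor that melanophores need to migrate and survive, rose (1.32 ± 0.31). Melanin genes are also used by the pigment epithelium of the eye. Of 34 iridophore and xanthophore genes 13 were higher and 5 lower (relative median 0.35). The xanthophore receptor gene csf1ra rose from 2.88 CPM (2.02 to 4.74) to 7.83 CPM (5.53 to 12.2), and the purine synthesis gene gart fell from 167 CPM (124 to 258) to 74.9 CPM (41.4 to 103).

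Muscle genes moved in both directions. Of 86 contractile genes of skeletal muscle 17 were higher and 12 lower (63 and 4 with total counts). These shares of 19.8% and 14% lay below the 22% and 19% of all genes. The list had 3 higher and 11 lower in the first 32 columns and 19 and 4 in the last 16. The early actin genes acta1b and actc1a fell, from 2155 CPM (1167 to 3328) and 3211 CPM (1476 to 5337) to 610.2 CPM (411 to 778) and 898 CPM (618 to 966), as did the myosin chaperone gene smyd1b (-1.52 ± 0.27). Fast troponin I tnni2b.2 rose (1.85 ± 0.40), with overlap. Of 29 heart genes 13 were higher and 2 lower (relative median 0.59). Separate fits called 2 higher and 2 lower within the first 32 columns and 13 and 2 within the last 16, not always the same genes by design. Atrial myosin myh6 rose from 2.98 CPM (2.27 to 7.71) to 11.6 CPM (9.69 to 25.8), and the sodium-calcium exchanger gene slc8a1a from 2.51 CPM (1.55 to 2.99) to 7.46 CPM (6.09 to 11.9). Myoglobin (mb) fell from 92.2 CPM (75.4 to 140.4) to 34.9 CPM (15.5 to 42.5).

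Globin genes were called lower or not at all. Of 8 globin genes 6 were lower and 0 higher, with a relative median of -1.62 and 3 lower and 1 higher under total counts. The embryonic beta globin gene hbbe1.3 (chromosome 3, 55131289 to 55132053) had 88.1 CPM (52.4 to 109) at 4 dpf and 9.84 CPM (6.9 to 16.8) at 5 dpf, and hbbe1.2 127 CPM (111 to 269) and 26.7 CPM (14.4 to 36.9). Both sets were apart (-2.89 ± 0.34 and -2.58 ± 0.37). The alpha globin gene hbae3 fell by less, with overlap (-1.12 ± 0.30), and was not called with total counts (-0.34, adjusted p 0.265). Globin copies lie close together and can share reads. Genes of heme synthesis and red cell formation had 7 of 36 higher and 6 lower (23 and 1 with total counts), among them alas2, the first enzyme of heme synthesis in red cells, as a fall (-1.36 ± 0.28) and the transferrin receptor gene tfr1a as a rise (1.33 ± 0.27).

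Immune genes were sparse. Of 39 tested genes of neutrophils, macrophages and microglia 10 were higher and 0 lower, with a relative median of 0.65. The share called higher, 25.6%, was near the 22% of all genes, while 19% of all genes were lower. The amino acid transporter gene slc7a7, marker of microglia, had 3.7 CPM (1.23 to 7.49) and 11.9 CPM (6.69 to 21.1), with overlap. Of 17 T cell and thymus genes 7 were higher and 5 lower (9 and 1 with total counts). The recombinase gene rag1, which cuts antigen receptor genes in the thymus, rose from 2.09 CPM (0.677 to 3.5) to 5.04 CPM (4.01 to 7.64) and runx3 from 3.07 CPM (2.16 to 4.89) to 6.88 CPM (6.51 to 11.8), and in both the ages were apart. The thymocyte factor gene tox, also a gene of neurons, fell from 302 CPM (182 to 545) to 119 CPM (80.6 to 165).

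Digestive organ genes had the 3 largest relative medians of the 53 lists, and they also varied widely among libraries of 1 age. Of 84 liver genes 51 were higher and 1 lower, of 21 exocrine pancreas genes 17 and 0, and of 46 intestine genes 34 and 2, with relative medians of 1.48, 3.89 and 2.44. The mean log2 CPM of the liver list was -0.57 in library H, the lowest, and 4.43 in library D, the highest of 4 dpf. At 5 dpf the lowest was A with 3.48 and the highest H with 5.59, so the ages overlapped. That of the exocrine pancreas ran from -1.89 to 1.99 at 4 dpf. At 5 dpf it was -1.58 and -1.49 in A and D and 4.52 to 5.10 in the other 4 libraries. For the intestine it was 0.41 and 0.67 in A and D, inside the 4 dpf range of -0.88 to 1.39, and 3.18 to 3.89 in the others.

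Without A and D of 5 dpf the relative medians were 1.86, 4.49 and 2.94, and 62, 17 and 35 genes were called higher. Without H and I of 4 dpf they were 0.96, 3.37 and 1.99, and 25, 15 and 29 were higher. By column block the liver list had 13 higher of 84 in the first 32 columns and 62 in the last 16, the exocrine pancreas 2 and 14 of 21, and the intestine 20 and 33 of 46. The first 32 columns hold I of 4 dpf and A and D of 5 dpf, and the last 16 hold H of 4 dpf. The blocks are therefore no check independent of these libraries. In limma on the quantile values 1 of 18 pancreas genes was called. How much of each organ the cut heads carried was not tested apart from age.

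**Figure D3:**
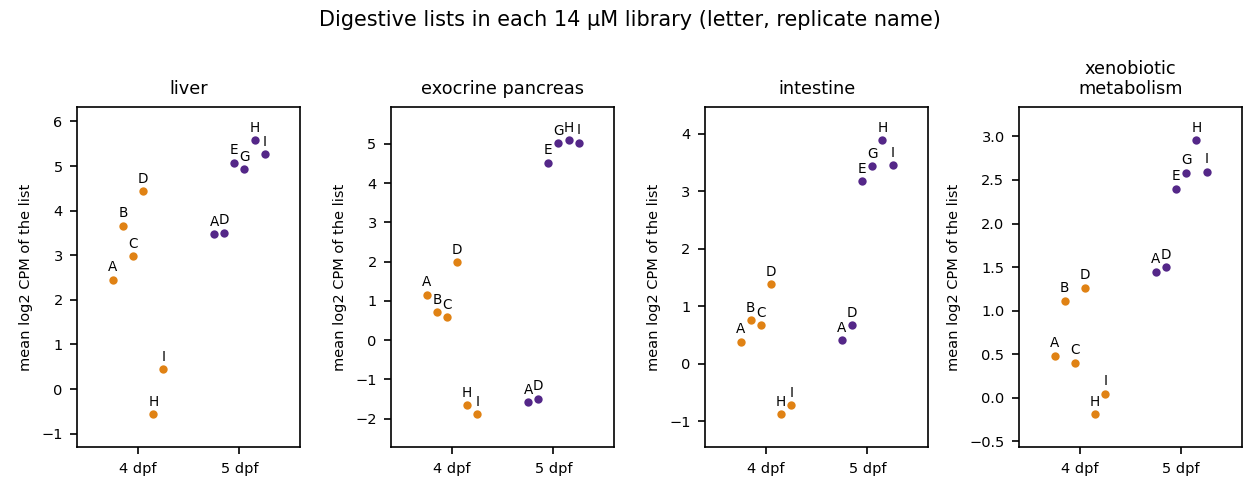
Mean log2 CPM of 4 lists (y axes) in each library of 14 µM by age (x axis), with the replicate letter above each point. Libraries A and D are the lowest of 5 dpf in every panel and H and I the lowest of 4 dpf, and for the exocrine pancreas A (-1.58) and D (-1.49) lie below 4 of the libraries of 4 dpf.

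Single genes showed the same parting of libraries. Trypsin (prss1) had 6.08 CPM (0.598 to 10.6) at 4 dpf, 0.645 and 0.795 CPM in A and D of 5 dpf and 109.8 to 293 CPM in the other 4. Chymotrypsin (ctrb1) had 39.6 CPM (1.28 to 116) at 4 dpf, 2.39 and 2.57 in A and D, and 816 to 1887 CPM in the rest. Elastase (ela2l) had 2.64 CPM (0.171 to 14.9) at 4 dpf, 0.414 and 0.615 in A and D, and 99.8 to 248. These 3 genes of the exocrine pancreas were close to the lowest values of 4 dpf in A and D, and above the whole 4 dpf range in the others. Amylase (amy2a) followed, with 0.0921 and 0.362 CPM in A and D and 188 to 279 elsewhere. Log2 fold changes were 4.65 ± 1.103, 4.46 ± 1.27, 4.64 ± 1.14 and 4.97 ± 1.31 over all libraries, and 5.23, 5.04, 5.22 and 5.55 without A and D. The mean ratios of ctrb1, ela2l and amy2a (22, 24.7 and 31) moved to 35.4, 47.6 and 46.9 without library D of 4 dpf.

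In the intestine the chitinase genes chia.1 and chia.2, neighbours on chromosome 11, had 0.3 CPM (0 to 2.33) and 6.74 CPM (0.385 to 13.9) at 4 dpf. At 5 dpf chia.2 had 5.8 and 9.98 CPM in A and D and 374 to 706 in the others, a log2 fold change of 5.76 ± 1.13 over all 6. For chia.1, at 0 in libraries H and I of 4 dpf, it was 6.15 ± 1.196, and the mean ratio of 66.4 became 132 without library A of 4 dpf. Villin (vil1) rose with overlap (1.27 ± 0.41; 1.08 and not called in the quantile values), and the intestinal fatty acid binding protein gene fabp2 was not called (0.99 ± 0.75; 1.88 and called with total counts). In the liver the fatty acid binding protein gene fabp10a had 27.2 CPM (0.454 to 97) and 77 CPM (20.9 to 205) and the transferrin gene tfa 128 CPM (2.59 to 818) and 586 CPM (249 to 1019). Neither was called (1.24 ± 0.75 and 1.12 ± 0.72), with ages that overlapped. Both were called higher with total counts (2.09 and 2.00) and in the quantile values (2.49 and 3.27, limma adjusted p 0.00967 and 0.000989), and tfa without library D of 4 dpf (1.84, edgeR adjusted p 0.0498). The fibrinogen gene fgb changed by 1.98 ± 0.70, a call (edgeR adjusted p 0.0209) that was lost without library C of 4 dpf or H of 5 dpf (adjusted p 0.0546 and 0.0536) or without H and I of 4 dpf (0.0895), and its mean ratio of 3.94 became 6.07 without D of 4 dpf. The mean ratio of tfa likewise moved from 2.17 to 3.57. The thyroid hormone carrier gene ttr was called higher (2.69 ± 0.61), and its ratio moved from 6.39 to 10.9 without D. The 1 liver gene called lower was cps1, of the urea cycle, from 54.7 CPM (27.7 to 71.2) to 19.2 CPM (16.5 to 23). Endocrine pancreas genes had 4 of 15 higher and 3 lower (9 and 1 with total counts).

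Detoxification genes rose with the digestive lists. Of 81 genes of xenobiotic metabolism and conjugation 52 were higher and 6 lower, with a relative median of 1.33 (1.52 without A and D of 5 dpf, 1.12 without H and I of 4 dpf). Libraries A and D again had the lowest means of 5 dpf, 1.45 and 1.496, but all 6 exceeded the 4 dpf range of -0.19 to 1.26. The aryl hydrocarbon receptor target cyp1a had 1.71 CPM (0.324 to 11.2) and 24.8 CPM (9.22 to 49), a change of 2.93 ± 0.56 whose mean ratio of 7.57 became 13.4 without library D of 4 dpf. PPAR targets and fatty acid oxidation had 26 of 61 higher and 8 lower (relative median 0.32), and cholesterol synthesis 13 of 28 and 3 (0.41). Cholesterol synthesis had 2 higher and 2 lower in the first 32 columns and 10 and 3 in the last 16. Without H and I of 4 dpf it had 6 and 3. Of its genes, the sterol oxidase gene msmo1 rose from 3.92 CPM (1.88 to 6.26) to 16.8 CPM (7.18 to 46.2). The LDL receptor gene ldlra rose with slight overlap, from 9.29 CPM (3.89 to 22.9) to 41.9 CPM (22.7 to 114). Of 38 glycolysis genes 12 were higher and 10 lower, and of 25 retinoic acid genes 7 and 5, against 24 and 1, and 15 and 0, with total counts.

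Stress genes split by member. Of 33 genes of the oxidative stress response 10 were higher and 10 lower, against 17 and 4 with total counts. The regulator genes nfe2l2a and nfe2l2b, which encode the 2 Nrf2 proteins, rose from 26.6 CPM (11.9 to 40.1) and 1.69 CPM (0.907 to 2.99) to 79.3 CPM (59.4 to 111) and 7.09 CPM (3.79 to 11.9). The peroxidase genes gpx4b and prdx3 fell from 429 CPM (334 to 538) and 54.5 CPM (33.2 to 89.1) to 80.3 CPM (51.6 to 164) and 16.1 CPM (9.35 to 32). In these 4 genes no library of one age lay in the range of the other. Heat shock proteins and chaperones had 8 of 56 higher and 13 lower (36 and 3 with total counts), and atf4a, the factor of the integrated stress response, fell from 1731 CPM (997 to 2120.1) to 560.0 CPM (341 to 679).

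Genes of protein synthesis and respiration were called lower in most cases. Of 83 cytosolic ribosomal protein genes 67 were lower and 1 higher, and of 102 nuclear genes of the respiratory chain 65 and 5, with relative medians of -1.68 and -1.29. Under total counts 44 and 41 were called lower, and 6 and 24 higher. The share of all counts in ribosomal protein genes was 6.33% ± 1.11 at 4 dpf and 3.95% ± 0.476 at 5 dpf, and that of the respiratory genes 1.55% ± 0.256 and 1.01% ± 0.11 (SD, n = 6; exact permutation p 0.00216 for each, the smallest possible). The 2 ages did not overlap in the respiratory share (1.25% to 1.92% and 0.881% to 1.21%), and their ribosomal shares touched (4.85% to 7.73% and 3.42% to 4.85%, with the lowest of 4 dpf above the highest of 5 dpf in the third decimal). The ribosomal gene rps21 had 114 CPM (64.6 to 148) at 4 dpf and 23 CPM (13.8 to 42.3) at 5 dpf. The complex III subunit gene uqcr10 (chromosome 21, 5882300 to 5885724) had 206 CPM (130.4 to 245) and 32 CPM (16.2 to 57.5), and cox7b of complex IV 129 CPM (64.9 to 181) and 19.8 CPM (12.8 to 46.5). Every library of 5 dpf was lower in these 3 genes (-2.16 ± 0.33, -2.57 ± 0.35 and -2.43 ± 0.35).

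Of 13 genes of the mitochondrial genome 6 were lower and 0 higher (relative median -0.996), with 1 and 2 under total counts and 2 and 3 in the quantile values. The mt-nd3 gene fell from 1333 CPM (779 to 2139.6) to 185 CPM (165 to 436). Proteasome subunits had 15 of 40 lower and 5 higher (6 and 19 with total counts), led by the catalytic subunit genes psmb6 and psmb5, from 1142 CPM (436 to 1296) and 182 CPM (139 to 234) to 199.8 CPM (95 to 212) and 49.5 CPM (31.9 to 79.2).

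The age change moved with expression level, which touches the lists of all tissues, and was lower in the shortest genes. Genes were put in 5 equal bins by mean log2 CPM. In the bin of the highest level 48.7% were called lower and 8.88% higher, with a median log2 fold change of -0.43, and in the lowest bin 3.16% and 22.2%, with 0.76. Among genes with a mean log2 CPM of at least 5, the 361 that span under 5000 bp had a median of -1.101 and the 965 that span over 50000 bp -0.29. With all genes in 5 equal bins by span, the bin of the shortest had a median of -0.03. The bins of longer genes had 0.20 to 0.32, with no rise with length among them. List medians were also taken against the trend of level in place of the median of all genes. There ribosomal proteins had -0.65 and the nuclear respiratory chain -0.78. Some lists lost or turned their relative median. Young neurons had 0.02, cartilage 0.18, the mitochondrial genome 0.22, synaptic vesicles 0.33 and monoamine neurons -0.23. Opsins had 0.91 in place of -0.26, and the visual cycle 0.33 in place of -0.20. Oxidative stress had 0.30 in place of -0.30, and pituitary hormones -0.16 in place of 0.19. Neutrophils, macrophages and microglia had 0.25 in place of 0.65. Crystallins kept -1.27, neural progenitors -0.50, myelin 0.73 and glucocorticoid targets 1.02. An index of short minus long abundant genes per library was 0.51 ± 0.42 at 4 dpf and -0.30 ± 0.19 at 5 dpf. The part of RNA quality or library making in these values was not tested.

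**Figure D4:**
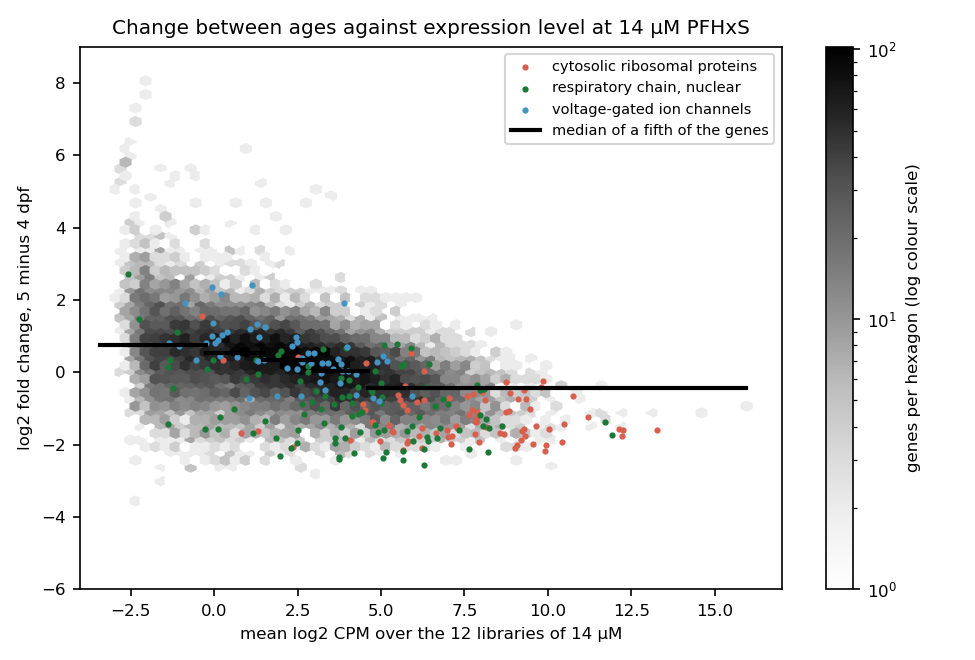
Log2 fold change from 4 to 5 dpf at 14 µM (y axis, TMM scaling) against mean log2 CPM over the 12 libraries (x axis) for 20723 genes, as hexagons shaded by the number of genes, with 3 lists as coloured points. Black bars are the medians of 5 equal bins of genes by level, from 0.76 in the lowest to -0.43 in the highest, and ribosomal and nuclear respiratory genes lie mostly below them.

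The next question was whether 14 µM PFHxS altered the change with age. The change was compared with that of the DMSO groups, which share no library with it, in a test of the difference of the 2 differences. It called 0 of 20723 genes (0%) in edgeR, and 0 in DESeq2 and in limma. The unadjusted p was under 0.05 for 478, 560 and 377 genes. In DMSO 4488 genes (21.7%) were called higher at 5 dpf and 4194 (20.2%) lower. Of these, 3085 and 3428 were also called in the same direction at 14 µM, and 0 genes in opposite directions. Across the 20723 genes, which are not independent, the log2 fold changes at 14 µM and in DMSO had r = 0.855. A miss of the threshold does not show that the changes were equal.

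**Figure D5:**
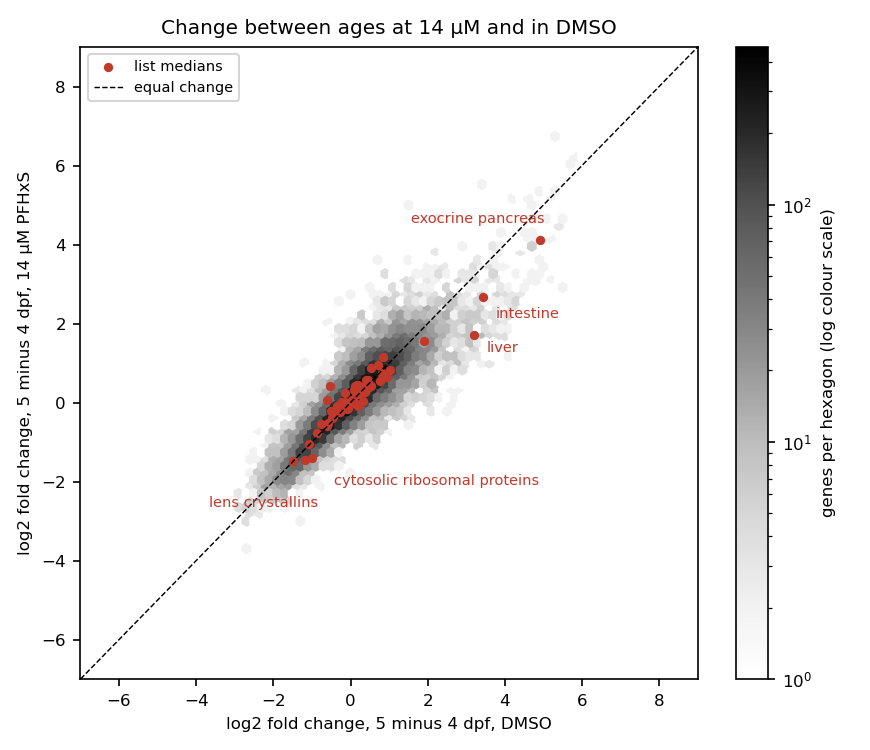
Log2 fold change from 4 to 5 dpf at 14 µM PFHxS (y axis) and in DMSO (x axis; both edgeR, TMM scaling) of 20723 genes, as hexagons shaded by the number of genes. Red points are the medians of 53 lists and the dashed line marks equal change; the liver list lies below it, at 1.71 against 3.197.

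Liver genes stood apart from the line of equal change. Their median was 1.71 at 14 µM and 3.197 in DMSO, and 1.84 and 1.77 at 7.87 and 25.1 µM, given side by side without a test. In DMSO 72 of the 84 were called higher, against 51. The difference had an unadjusted edgeR p under 0.05 for 17 of the 84, beside 478 of all 20723 genes, and an adjusted p under 0.05 for 0. The 84 genes are not independent of each other, so the 17 are no test of the list. The DMSO libraries had list means of 1.18 to 3.37 (4 dpf) and 4.78 to 5.44 (5 dpf), a narrower range than at 14 µM. No DMSO library of 5 dpf lay as low as A and D of 5 dpf at 14 µM, while E, G, H and I had 4.94 to 5.59. At 4 dpf, libraries B and D of 14 µM (3.66 and 4.43) lay above all DMSO libraries of that age. Libraries H and I of 4 dpf (-0.57 and 0.45) lay below them. Without A and D of 5 dpf the liver median at 14 µM was 2.07, and without H and I of 4 dpf it was 1.18. Medians of the exocrine pancreas and intestine at 14 µM and in DMSO were 4.12 and 4.91, and 2.67 and 3.44. Other lists lay nearer to the line or farther from it, and none of these distances was tested. Relative medians at 14 µM and in DMSO were -0.60 and -0.66 for the cell cycle, -0.47 and -0.47 for young neurons, 0.52 and 0.63 for myelin and -1.70 and -1.70 for crystallins. They were 0.20 and -0.09 for phototransduction, -0.17 and -0.80 for melanophores, and 0.19 and -0.72 for the 8 pituitary hormone genes. Within the last 16 columns the values at 14 µM turned to -0.06 for phototransduction and -0.13 for the pituitary genes. The pituitary genes also had -0.43 at 14 µM in the quantile values.

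The 5 genes with the smallest p of the difference, under the limits for named genes, are given with their values in both groups; that p chose them, so it is no support for them. The cone gene six7, a homeobox factor that directs cone opsin expression (chromosome 7, 7401692 to 7420302), rose at 14 µM from 36.8 CPM (22.7 to 40.7) to 54.1 CPM (40.8 to 64.6) and had 47.1 CPM (37.2 to 58.9) and 35.9 CPM (30.1 to 51.6) in DMSO. The log2 fold changes were 0.61 ± 0.16 and -0.32 ± 0.16, and their difference 0.93 ± 0.23 had an unadjusted edgeR p of 0.000218. The integrin gene itgb8 rose from 1.21 CPM (0.399 to 1.88) to 2.91 CPM (2.5 to 4.86) and had 3.03 CPM (1.71 to 4.08) and 3.3 CPM (2.97 to 3.58) in DMSO. Its difference was 1.27 ± 0.40 (unadjusted edgeR p 0.00232). At 7.87 and 25.1 µM the changes of six7 were 0.23 and 0.69, and those of itgb8 0.84 and 0.51. The actin bundler gene fscn2a of photoreceptors and hair cells, the membrane tether gene esyt2b and the potassium channel gene kcnj19b had differences of 0.81 ± 0.24, -1.07 ± 0.32 and -1.21 ± 0.36. At 14 µM fscn2a (0.28 ± 0.17, and 1.05 and called with total counts) and esyt2b (-0.26 ± 0.22, and 0.51 with total counts) were not called. The call of kcnj19b (-0.69 ± 0.26, edgeR adjusted p 0.0278, and 0.09 with total counts) was lost without library C or H of 4 dpf or A or H of 5 dpf, with adjusted p from 0.0558 to 0.0896, and without A and D together or H and I together (0.0938 and 0.0952). The adjusted p of the difference was 1.00 for all 5.

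Of 3 genes that differed most between 14 µM and DMSO at 4 dpf in earlier results of these libraries, the RNA-binding protein gene rbms1b rose from 0.263 CPM (0 to 0.769) to 1.17 CPM (0.965 to 1.93) against 1.21 CPM (0.53 to 1.79) and 1.51 CPM (1.15 to 1.79) in DMSO. The ratio of its mean CPM at 14 µM was 5.19, and 8.51 without library I of 4 dpf. The kinase gene stk38b rose from 1.09 CPM (0.583 to 1.5) to 2.56 CPM (2.06 to 3.66), with 2.06 CPM (1.42 to 3.74) and 2.77 CPM (1.96 to 4.34) in DMSO. The growth arrest gene gadd45ga was not called (0.34 ± 0.42), with 3.21 CPM (1.58 to 21.6) and 9.05 CPM (3.53 to 10.8), where library B of 4 dpf held the highest value. Without that library it was called higher (1.21, edgeR adjusted p 0.0104) and its mean at 5 dpf was 2.3 times that at 4 dpf in place of 1.26. It was called with total counts (1.11), and without H and I of 4 dpf the change was -0.10. As these genes were chosen by their 4 dpf values, their differences of 1.96 ± 0.57, 1.02 ± 0.44 and -1.27 ± 0.61 between 14 µM and DMSO are a description with no test.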

How the data were processed

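RNA of zebrafish heads was sequenced in 48 libraries, 8 groups (2 ages, DMSO or 3 PFHxS concentrations) of 6. The authors deposited estimated counts per gene for 25445 genes and quantile-normalised log2 values for 19844 genes. Per the submitters' processing notes, STAR 2.5.3a, Partek 8.0.19.0428 and build GRCz11 were used. Of the deposited count values 77.49% were whole (tolerance 1e-09), and they were rounded. Strand use in counting is not given in the sources used here, so overlapping genes and near copies are uncertain.

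All 48 libraries entered 1 fit in edgeR 4.0.16 (R 4.3.3; TMM, filterByExpr, quasi-likelihood test), with adjustment by Benjamini-Hochberg over 20723 genes at 0.05. CPM values are counts per 1e+06 after TMM scaling, and list means are of log2 CPM (prior count 2). Alternatives used DESeq2 1.42.0 and limma 3.58.1 on the deposited quantile values. For limma these were taken out of log2, raised by 1 and put back in log2. For single values per library a two-sided exact permutation test was run. All 48 count columns matched a title.

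Genes are named by rule: the 10 largest rises and falls among called, separated genes with a mean log2 CPM of at least 1, up to 3 rises and 3 falls per list, a set of marker genes whatever their values, and the 5 smallest p of the difference. The members and the 53 lists were chosen with earlier results of these data known. Replicate letters did not pair the ages. Of 66 pairs of libraries none was a repeat of another (smallest chi-square per gene 19.9).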

Additional observations from a re-analysis of the deposited data

Results flagged for a closer look

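Of 442 groups of 6 libraries examined, for the genes named above and the means of the lists, 17 held a library whose gap to its nearest neighbour passed Dixon's critical value for 6 samples, as a share of the group's range. About 22.1 are to be expected by chance at 1 in 20. Library H of 5 dpf lay apart in the most of them. It was the lowest library for lsm5 (gap 0.761 of the range), rab3c (0.648) and nr4a2a (0.687), and the highest for myh6 (0.720), tfr1a (0.690) and runx3 (0.802). Library G of 5 dpf was the highest for slc6a5 (0.627) and for the mean of the voltage-gated ion channels (0.647), and the lowest for tyrp1b (0.673) and psmb6 (0.745). Library A of 5 dpf was the highest for opn1mw2 (0.676), and library E of 5 dpf the lowest for fscn2a (0.743) and gadd45ga (0.667). At 4 dpf, library I was the lowest for gpr143 (0.631), library C the highest for hbbe1.2 (0.640), and library D the highest for myh6 (0.626) and for the mean of the thyroid axis (0.779).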

How the results depend on the processing

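The count of 8486 called genes (4557 higher, 3929 lower) was 8464 with relative log expression factors, 9034 with DESeq2, 7200 with limma on the quantile values and 6397 with the 12 libraries alone. It moved by over 1.5 times with a minimum change of 1.5-fold (3653; 1894 higher, 1759 lower), total counts (13869; 12671, 1198), the first 32 columns (3525; 1466, 2059) and the last 16 (5626; 2578 higher). With the replicate letter as a block it was 4279 (2054, 2225); at 14 µM the same-letter r was -0.56 to -0.01 and no letter was its own best match, while in DMSO it was -0.45 to 0.50, with E and H their own best match, so the letters were not taken as pairs. Leaving out 1 library gave 7014 to 9358 called, 3542 to 5187 higher and 3429 to 4171 lower. Left-out pairs of libraries were chosen after seeing the data: without A and D of 5 dpf 7322 were called, and without H and I of 4 dpf 6350. No gene was called for the difference from DMSO in any setting run, with 347 to 1242 at an unadjusted p under 0.05. Directions turned in these genes, and the cause was not tested. In limma they were col2a1a (0.26), matn1 (0.00407), gh1 (-0.58), mki67 (0.12) and opn1sw1 (1.19). With total counts they were esyt2b (0.51), kcnj19b (0.0866), mki67 (0.46) and opn1sw1 (0.58). With the block they were esyt2b (0.11), gh1 (-0.54) and opn1sw1 (0.0914). Within the last 16 columns they were elavl3 (-0.11), esyt2b (0.0156), fscn2a (-0.0447) and gh1 (-1.40). With 1 library left out they were elavl3 (-0.0532 to 0.281), gh1 (-0.62 to 0.37) and opn1sw1 (-0.32 to 0.12), and without H and I of 4 dpf gadd45ga (-0.10). Pools of 6 per age, and 0 counts of some genes at 4 dpf, limit the folds of low genes.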
